A study of Mus musculus with 24 samples.

Results

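Mouse CD8+ T cells, the cytotoxic lymphocytes that kill infected and malignant cells, were activated in culture and exposed to lithocholic acid (LCA), and their RNA was set against that of activated cells given no bile acid. The comparison was chosen by group: the 3 libraries titled LCA and the 3 titled Control, 6 of the 24 libraries of the series, across all measured genes. LCA cells received 50 µM of the acid, and the control cells are labelled as such with no vehicle named. Activation in vitro was common to all groups, and exposure is given as 24 h in one place and as overnight in another. Cells given isolithocholic acid (IsoLCA), dehydrolithocholic acid (DehydroLCA) or ursodeoxycholic acid (UDCA), each at 50 µM and in 3 libraries, enter the last comparisons. The labels give neither the strain, age and sex of the mice nor the animals or cultures behind each library. The p-values therefore reflect how much libraries of the same group vary across the 24 libraries, and that variation may be technical only.

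LCA is a secondary bile acid that gut bacteria make from chenodeoxycholic acid, and it returns to the liver in portal blood. It is known as a ligand of the membrane receptor TGR5 and of the vitamin D receptor, and its hydrophobic ring system makes it one of the more toxic bile acids for cells. Effector CD8+ T cells depend on glycolysis, amino acid uptake and strong protein synthesis, and they carry out their function through interferon gamma, granzymes and perforin.

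The LCA libraries held 35016183 to 40516190.5 counts in genes and the control libraries 32308354.5 to 37269527.5, and 13044 genes passed the filter on low counts. Counts in exons made up 80.7% ± 1.52 of the library total with LCA and 82.6% ± 1.37 in control (SD, n = 3 each), and 15720 to 15812 genes had a count in LCA libraries, against 15337 to 15484 in control libraries. Levels are given as CPM, counts scaled to the size of the library. The cells carried the markers of their label: Cd8a had 677, 670.2 and 666 CPM in LCA libraries and 636, 616 and 626 CPM in control libraries. The 10 CD8 T cell markers together reached 4749 to 5292 CPM in LCA libraries and 5745 to 6197 CPM in control libraries. Gzmb, a granzyme, carried this gap, with 2640.0 to 3075 CPM with LCA and 3611 to 4045 CPM in control, and the other 9 markers summed to 2063 to 2217 CPM with LCA and 2134 to 2157 CPM in control. Of the 9 B cell markers in the table, 2 had enough counts to be tested, and all 9 summed to 4.74 to 4.99 CPM with LCA and 6.26 to 6.68 CPM in control. The myeloid and dendritic list summed to 103 to 107 CPM with LCA and 94.3 to 100.5 CPM in control, mostly from Batf3 and Cst3, with Siglech, S100a8 and S100a9 at 0. Natural killer and innate lymphoid markers summed to 45.9 to 49.5 CPM with LCA and 53.3 to 55.9 CPM in control, mostly from Eomes and Gata3, which T cells also express; the other 9 summed to 7.24 to 7.74 CPM with LCA and 6.13 to 7.99 CPM in control. The list of stromal, endothelial and erythroid markers was carried by Pecam1, an adhesion molecule of endothelium and leukocytes, with 30.4 to 36.4 CPM with LCA and 45.1 to 51.2 CPM in control; the other 13 summed to 3.99 to 4.91 CPM with LCA and 3.34 to 3.90 CPM in control, with Col3a1 and Alb at 0. The CD4 and regulatory T cell list summed to 2047 to 2258 CPM with LCA and 2565 to 2816 CPM in control, mostly from Il2ra and Ctla4, which activated CD8+ T cells also express. The other 5 went the other way and summed to 77.4 to 82.03 CPM with LCA and 64.98 to 66.9 CPM in control. Cd4 itself stood at 0.541 to 0.617 CPM in LCA libraries and 0.525 to 0.620 CPM in control libraries. RNA was measured in bulk, so fewer cells of a kind and less RNA per cell cannot be told apart in any value below.

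With LCA, 4765 of the 13044 tested genes differed from control at a Benjamini-Hochberg adjusted p under 0.05, which is 36.5%. In what follows "rose" and "fell" are used of these genes only, and a value beside a gene is its log2 fold change from edgeR, LCA over control, ± SE. Of the changed genes, 2312 rose (17.7% of those tested) and 2453 fell (18.8%), and the median log2 fold change over all tested genes was 0.01. These shares and this median are the background for every gene group below. They varied with level: at a mean of 100 CPM and over, 17.1% rose and 30.5% fell (median -0.03). Under 1 CPM the shares were 7.92% and 7.75%. The lists were not matched for level, so lists of abundant genes can hold more falls than the background on that ground. Most changes were small: 1249 of the genes that rose and 1258 of those that fell moved by less than 1.2-fold, and 268 genes (2.05%) passed 2-fold, 124 upward and 144 downward. Most of these were scarce, and 45 passed 2-fold when genes under a mean of 5 CPM were left out, 14 upward and 31 downward. The 3 LCA libraries lay wholly above the 3 control libraries in 3106 genes (23.8%) and wholly below them in 3110 (23.8%). Over all tested genes and the 24 libraries, the first principal component, with 38.4% of the variance, did not part LCA from control. It had LCA libraries at -6.13 to -4.69 and control libraries at -7.85 to -1.52. Its highest libraries were those titled IsoAlloLCA, another acid of the series, at 42.2 to 55.1. The second component, with 11.98% of the variance, placed the LCA libraries lowest of the series, at -26.3 to -15.4 with control at 7.91 to 17.4.

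The genes that moved most cover several functions. Among 3571 changed genes that reached 10 CPM in LCA or control, had libraries without overlap and an established symbol, the largest rise was in Cth, the cystathionine lyase that makes cysteine, with 12.8, 17.3 and 14.5 CPM in LCA libraries and 3.28, 4.55 and 4.81 CPM in control libraries (1.81 ± 0.17). It was followed by the interferon-stimulated gene Rtp4 (1.57 ± 0.15), the invariant chain Cd74 (1.47 ± 0.10) and Lmna, which encodes lamins A and C of the nuclear lamina. Lmna had 18.7, 19.03 and 18.5 CPM in LCA libraries and 7.43, 6.94 and 6.55 CPM in control libraries, a difference of 1.43 ± 0.07 (edgeR adjusted p = 2.89e-14). The groups were far apart in each of these genes, with every LCA library above every control library. The largest falls were in the aldolase Aldoc (-2.05 ± 0.12), the collagen prolyl hydroxylase P4ha2 (-1.99 ± 0.19), the sterol exporter Abcg1 (-1.96 ± 0.09) and the phosphatase Acp5 (-1.74 ± 0.08). Aldoc had 11.7, 9.84 and 11.04 CPM in LCA libraries and 42.5, 51.8 and 41.3 CPM in control libraries. Tubb6, a beta-tubulin, had 29.8, 24.9 and 27.8 CPM in LCA libraries and 81.1, 85.02 and 84.5 CPM in control libraries (-1.60 ± 0.07), and each LCA library was below every control library. On the mm10 genome, Cth lies at chr3:157894248-157925063 (minus strand), Lmna at chr3:88481148-88503352 (minus strand), Aldoc at chr11:78323073-78327778 (plus strand) and Tubb6 at chr18:67390731-67402749 (plus strand).

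**Figure D1:**
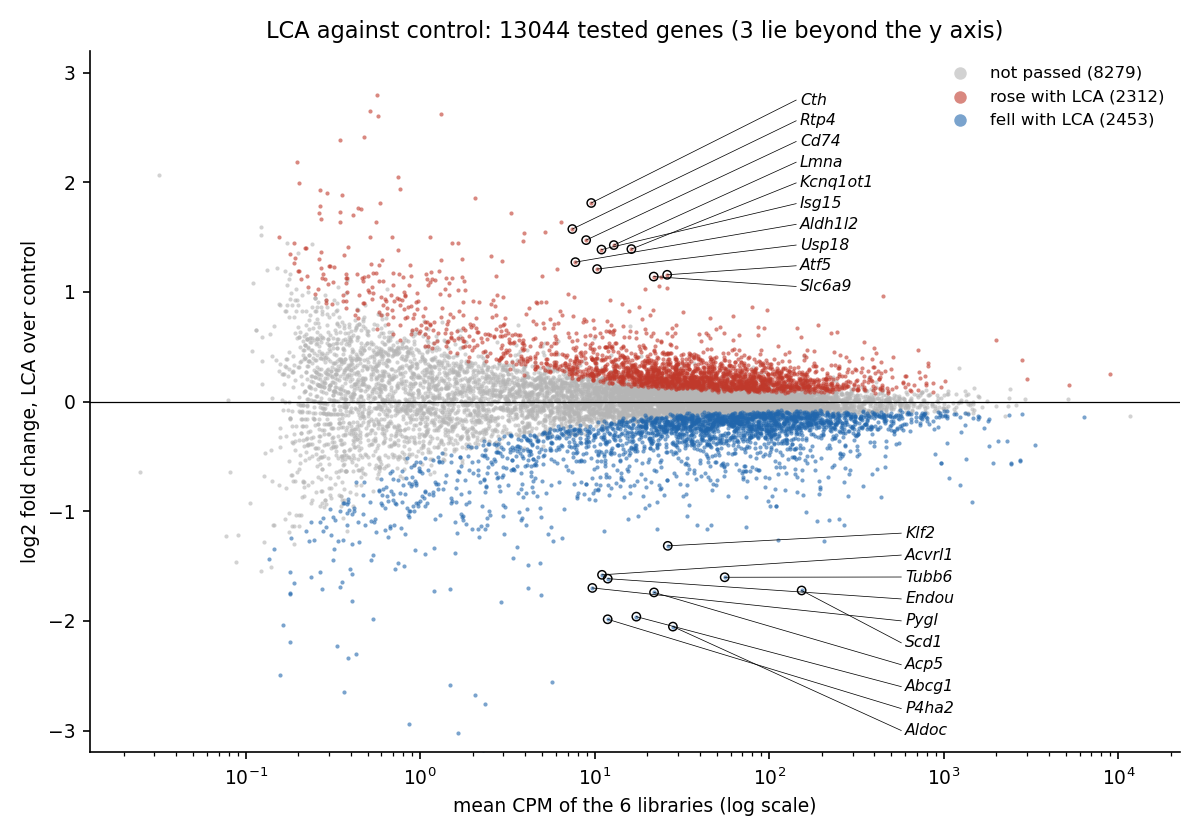
Each point is 1 of the 13044 tested genes, placed by its mean CPM over the 6 libraries (log axis) and its log2 fold change, LCA over control. Genes that rose (2312) and fell (2453) lie around 0 in a narrow band, and the 10 largest ranked changes in each direction, from Cth at 1.81 to Aldoc at -2.05, are named; 3 genes lie beyond the axis limits of 3.2.

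Interferon-responsive genes split into a group that was higher with LCA and a group that was lower. Type I interferons signal through a complex that contains IRF9 and binds the interferon-stimulated response element, while interferon gamma acts in part through IRF1 and induces a family of large GTPases that defend cells against intracellular microbes. In the list of interferon-stimulated genes, 36 of 66 tested members rose, 13 fell and 17 did not pass, with a median log2 fold change of 0.28. In the list of interferon gamma GTPases and related genes, which shares no member with the first, 4 of 23 rose, 13 fell and 6 did not pass, with a median of -0.22. With genes under 5 CPM left out, 23 of the interferon-stimulated genes rose. The 4 rises of the interferon gamma list became 2 without LCA replicate 2 and 2 without control replicate 3.

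Promoters of both groups held the motif that interferon factors are known to bind. The letters GAAA, 2 bases of any kind and GAAA again, on either strand, were searched in the 250 bases before the start site in the RefSeq promoter table of the same build (GRCm38.p6), which matched 9896 of the 13044 tested genes. They were present in 2.81% of all those promoters, in 13 of 27 interferon-stimulated genes that rose (48.1%), in 2 of 10 that fell and in 7 of 10 interferon gamma genes that fell (70.0%). Over the whole lists the shares were 20 of 50 interferon-stimulated genes (40.0%) and 10 of 14 interferon gamma genes (71.4%). The 6 stretches below were chosen after their values were seen, to set 3 genes that rose (Isg15, Ifit3 and Cxcl10) beside 3 that fell (Gbp2, Tgtp1 and Igtp). Each is 100 bases, 5′ to 3′ on the gene's strand, with matches in capitals. In Isg15 the 3 matches overlap. The promoters of Oasl1, Oasl2, Xaf1 and Irf7, which also rose, held no match in this window.
Isg15: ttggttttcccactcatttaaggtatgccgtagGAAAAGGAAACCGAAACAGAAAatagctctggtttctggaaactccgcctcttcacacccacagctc
Ifit3: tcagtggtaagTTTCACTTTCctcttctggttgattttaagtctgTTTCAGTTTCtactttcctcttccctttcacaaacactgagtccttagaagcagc
Cxcl10: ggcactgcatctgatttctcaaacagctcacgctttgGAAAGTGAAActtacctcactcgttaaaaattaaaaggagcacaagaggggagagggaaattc
Gbp2: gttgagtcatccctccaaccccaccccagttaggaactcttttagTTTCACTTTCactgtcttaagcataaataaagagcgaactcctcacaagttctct
Tgtp1: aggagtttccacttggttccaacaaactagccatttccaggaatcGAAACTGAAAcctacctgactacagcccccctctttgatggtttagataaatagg
Igtp: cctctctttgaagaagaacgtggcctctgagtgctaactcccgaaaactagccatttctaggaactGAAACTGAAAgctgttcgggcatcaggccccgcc
The stretches lie at chr4:156200830-156200929 (minus strand), chr19:34583362-34583461 (plus strand), chr5:92349040-92349139 (minus strand), chr3:142620559-142620658 (plus strand), chr11:48992269-48992368 (minus strand) and chr11:58199456-58199555 (plus strand). The match nearest to the start site lies 66 bases upstream in Isg15, 122 in Ifit3, 213 in Cxcl10, 59 in Gbp2, 77 in Tgtp1 and 34 in Igtp. The same letters thus stand in promoters of genes that moved in opposite directions. A match describes the letters only, not a bound site.

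Among the interferon-stimulated genes that rose, Isg15, the ubiquitin-like modifier, had 16.5, 15.7 and 15.2 CPM in LCA libraries and 5.79, 7.71 and 4.70 CPM in control libraries (1.39 ± 0.13, edgeR adjusted p = 8.24e-09). Usp18, the protease that removes Isg15 and restrains the receptor, had 14.8, 13.9 and 14.4 CPM in LCA libraries and 6.66, 6.97 and 5.11 CPM in control libraries (1.21 ± 0.14). Irf7, the factor that amplifies interferon transcription, had 18.9, 18.7 and 18.1 CPM in LCA libraries and 10.2, 11.6 and 8.40 CPM in control libraries (0.89 ± 0.13). The LCA libraries were higher throughout and close to each other in all 3 genes. The oligoadenylate synthetase-like genes Oasl1 (1.72 ± 0.14) and Oasl2 (1.54 ± 0.14), Slfn8 (0.61 ± 0.06) and Xaf1 (0.82 ± 0.08) also rose, and so did the RNA sensors Ddx58 (0.58 ± 0.07), which encodes RIG-I, and Ifih1 (0.59 ± 0.09), which encodes MDA5. Rtp4, which encodes a receptor transporter protein, had 11.99, 10.5 and 10.9 CPM in LCA libraries and 3.75, 4.25 and 3.26 CPM in control libraries. In the list of nucleic acid sensors, to which Ddx58 and Ifih1 belong, 8 of 24 genes rose and 4 fell (median 0.05). The ISGF3 subunit Irf9 rose by a smaller amount (0.32 ± 0.05). The genes of the list that fell included Ms4a4b, a membrane protein of T cells (-0.66 ± 0.06).

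Gbp2, a guanylate-binding protein of the interferon gamma group, had 112, 97.2 and 100.3 CPM in LCA libraries and 183, 187 and 179 CPM in control libraries (-0.83 ± 0.06, edgeR adjusted p = 1.72e-10). Tgtp1, a T cell GTPase, had 155, 137 and 137 CPM in LCA libraries and 252, 246 and 247 CPM in control libraries (-0.79 ± 0.07). Gvin1, a very large GTPase, had 809, 767 and 761 CPM in LCA libraries and 1202, 1160.0 and 1078 CPM in control libraries (-0.56 ± 0.04). These 3 genes were lower in every LCA library than in any control library. Iigp1 (-0.68 ± 0.06) and Igtp (-0.38 ± 0.05), both immunity-related GTPases, fell as well. Tgtp1 and its near-identical neighbour Tgtp2 (-0.63 ± 0.07) may share reads, so their separate values are uncertain. Within the list, the chemokine Cxcl10 went the other way, with 7.69, 6.87 and 8.46 CPM in LCA libraries and 2.20, 3.75 and 1.99 CPM in control libraries (1.54 ± 0.16). The receptor chain Ifngr1 had 146, 140.3 and 148 CPM in LCA libraries and 244, 242 and 233 CPM in control libraries (-0.73 ± 0.06), whereas Ifngr2 was 0.37 ± 0.08 and rose. The cytokine itself, Ifng, had 5.04, 3.45 and 5.38 CPM in LCA libraries and 3.56, 5.48 and 4.25 CPM in control libraries, and its groups overlapped (0.06 ± 0.17, 95% interval -0.28 to 0.41, not passed).

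**Figure D2:**
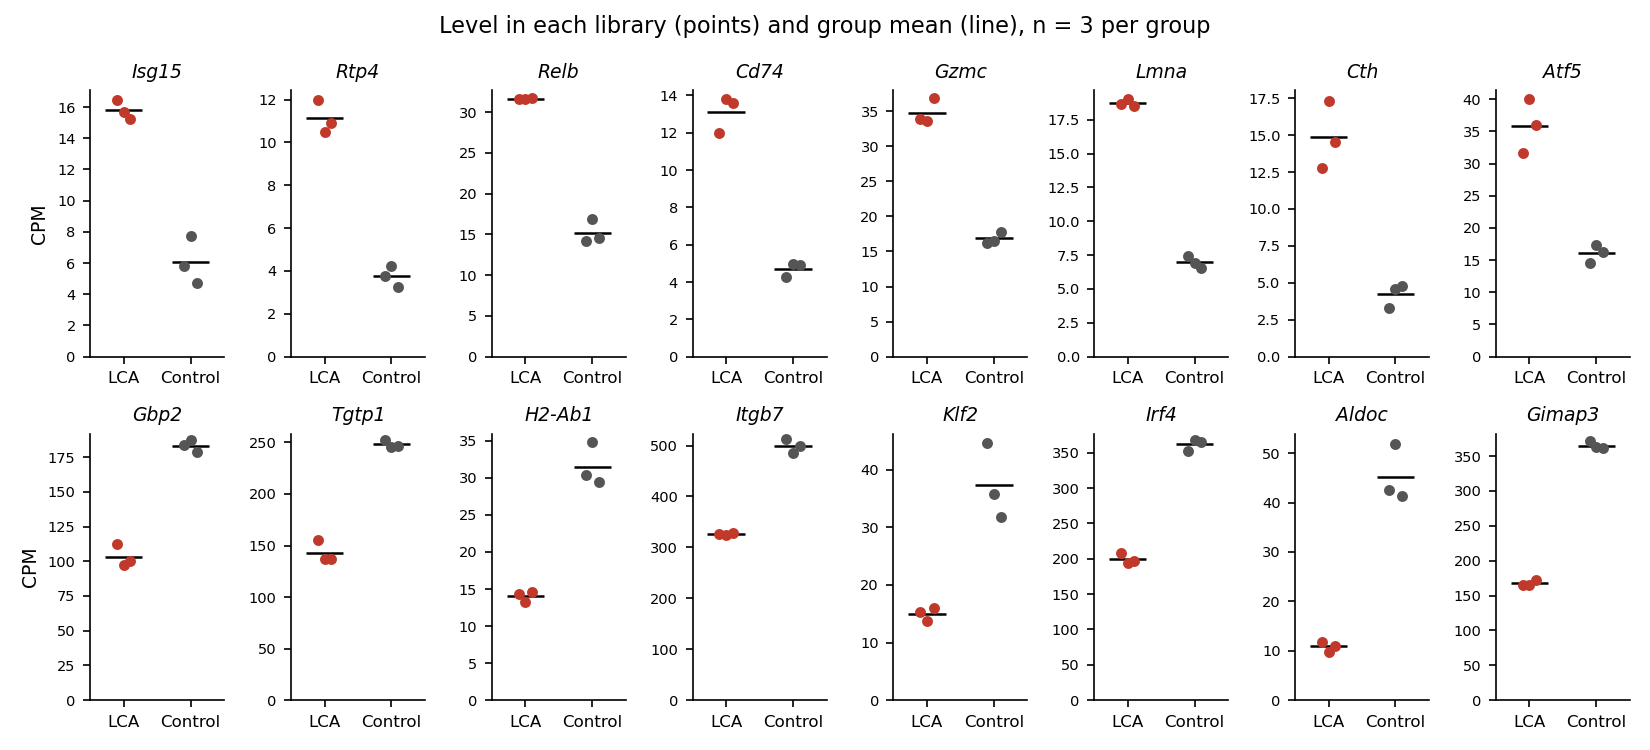
Points give the CPM of 16 genes in each library, 3 with LCA on the left and 3 of control on the right, and lines give group means, with axes starting at 0. In the genes that rose (Isg15 to Atf5) each LCA point is above each control point, and in those that fell (Gbp2 to Gimap3) each is below; Isg15 was 15.2 to 16.5 CPM with LCA and 4.70 to 7.71 CPM in control.

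NF-kB genes rose more often than they fell. NF-kB factors are held in the cytoplasm by inhibitors such as IκBα, and many of the pathway's own components are its targets. Of 27 tested members, 15 rose, 1 fell and 11 did not pass, with a median of 0.18. Relb, the subunit of the noncanonical arm, had 31.6, 31.6 and 31.8 CPM in LCA libraries and 14.2, 16.9 and 14.6 CPM in control libraries (1.06 ± 0.08, edgeR adjusted p = 6.8e-10). Nfkbia, which encodes IκBα, had 56.1, 54.5 and 60.9 CPM in LCA libraries and 31.9, 37.6 and 31.7 CPM in control libraries (0.76 ± 0.07). Nfkb2, the precursor of the p52 partner of RelB, had 98.8, 104 and 107 CPM in LCA libraries and 68.3, 69.96 and 65.9 CPM in control libraries (0.60 ± 0.06). No LCA library overlapped control in these genes. The ubiquitin ligase Birc3 also rose (0.48 ± 0.05). The member that fell was Nfkb1, with 482, 464 and 462 CPM in LCA libraries and 551, 568 and 577 CPM in control libraries (-0.27 ± 0.03). The NF-kB letters were GGG, 2 bases of any kind and TTTCC, on either strand. They stood in 5 of 23 promoters of the list (21.7%), 5 of 14 promoters of the members that rose (35.7%) and 1.52% of all 9896. Birc3 had no match in this window. Those of Nfkbia (chr12:55492648-55492747 (minus strand), nearest match 29 bases upstream) and Nfkb2 (chr19:46304637-46304736 (plus strand), 11 bases upstream) are shown, since both genes are known targets of the pathway, with matches in capitals.
Nfkbia: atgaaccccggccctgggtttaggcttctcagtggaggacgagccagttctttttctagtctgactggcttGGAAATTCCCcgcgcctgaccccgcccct
Nfkb2: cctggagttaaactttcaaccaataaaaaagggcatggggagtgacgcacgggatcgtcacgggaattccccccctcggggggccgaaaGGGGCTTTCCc

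Antigen presentation genes moved unequally. MHC class I molecules show peptides of the cell's own proteins to CD8+ T cells, and class II molecules, with their invariant chain, serve CD4+ T cells. None of the 25 tested class I genes rose, 11 fell and 14 did not pass (median -0.11), among them the class I genes H2-Q7 (-0.23 ± 0.05) and H2-Q6 (-0.22 ± 0.04), which are near-identical and may share reads, and the peptide transporter Tap1 (-0.14 ± 0.04). 1 class I gene rose without control replicate 1 or with upper-quartile factors. The count of 11 was 5 without LCA replicate 2, 6 without control replicate 3, and 9 fell and 2 rose with offsets for transcript length and GC content. H2-K1, a classical class I gene, did not pass (-0.0028 ± 0.03, 95% interval -0.07 to 0.07). Of 20 class II genes, 3 rose, 10 fell and 7 did not pass (median -0.21). Cd74, the invariant chain, had 11.97, 13.8 and 13.6 CPM in LCA libraries and 4.27, 4.96 and 4.92 CPM in control libraries (1.47 ± 0.10, edgeR adjusted p = 3.15e-11), while the class II chain H2-Ab1 had 14.3, 13.3 and 14.6 CPM in LCA libraries and 30.4, 34.9 and 29.4 CPM in control libraries (-1.16 ± 0.10). H2-DMa, which loads peptides on class II, fell (-0.62 ± 0.06). Cd74 and H2-Ab1 thus stood apart from control in opposite directions, in all 3 libraries. B cell markers, whose cells also express class II, summed to 4.74 to 4.99 CPM with LCA and 6.26 to 6.68 CPM in control. Of the myeloid and dendritic markers, whose cells express class II as well, 3 of 8 tested rose and 1 fell (median 0.13). The rises were 2 with DESeq2 and without any 1 library other than LCA replicate 3, and 1 with genes under 5 CPM left out. Cd68 did not pass with DESeq2 or in those leave-outs. Cst3 fell, with 40.5 to 41.9 CPM with LCA and 45.3 to 47.7 CPM in control, a call lost with the length and GC offsets. Among the rises Zbtb46, a dendritic cell factor, had 0.885, 1.01 and 0.860 CPM in LCA libraries and 0.217, 0.372 and 0.193 CPM in control libraries (1.81 ± 0.37). Without the 2 most abundant members the list summed to 6.10 to 6.56 CPM with LCA and 4.67 to 5.54 CPM in control. The part of these cells in the class II values was not tested. The scarce receptor Cd40 rose (2.60 ± 0.35), at 0.983 ± 0.0929 CPM with LCA and 0.163 ± 0.0983 CPM in control (SD, n = 3 each).

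Granule and chemokine genes of killer cells were mixed. Of 23 tested granzyme, perforin and granule genes, 4 rose, 10 fell and 9 did not pass (median -0.11). Gzmc, a granzyme of strongly activated cells, had 33.8, 33.5 and 36.9 CPM in LCA libraries and 16.3, 16.5 and 17.8 CPM in control libraries (1.04 ± 0.07, edgeR adjusted p = 1.19e-11). Gzmb, the main apoptosis-inducing granzyme, had 3075, 2640.0 and 2915 CPM in LCA libraries and 3611, 3696 and 4045 CPM in control libraries (-0.40 ± 0.09). Prf1, the pore-forming perforin, had 17.6, 17.1 and 17.4 CPM in LCA libraries and 25.2, 30.9 and 31.8 CPM in control libraries (-0.76 ± 0.11). Gzmc was thus higher in all 3 LCA libraries, and Gzmb and Prf1 were lower in all 3. Srgn, the granule proteoglycan (-0.51 ± 0.06), the granzyme inhibitor Serpinb6b (-0.80 ± 0.10) and the granzyme-activating protease Ctsc (-0.33 ± 0.04) fell. The 4 rises became 2 without LCA replicate 2, without LCA replicate 3 or without control replicate 2. Among 8 chemokine genes, Cxcl10 and Ccl5 rose and Ccl3 and Ccl4 fell. Ccl5, a chemokine of memory and effector T cells, had 23.3, 26.9 and 27.8 CPM in LCA libraries and 11.3, 15.1 and 11.99 CPM in control libraries (1.02 ± 0.12). Ccl3 (-0.92 ± 0.17) and Ccl4 (-0.84 ± 0.16), both inflammatory chemokines, were scarce, Ccl3 at 1.11 ± 0.0987 CPM with LCA and 2.09 ± 0.241 CPM in control (SD, n = 3 each). With genes under 5 CPM left out, 1 chemokine gene rose and none fell. Of 18 cytokine genes, 4 rose, 3 fell and 11 did not pass (median 0.02): Tnf (0.35 ± 0.07) and Csf1 (0.61 ± 0.14) rose, and Mif (-0.40 ± 0.04) and Lif (-0.46 ± 0.13) fell. The 4 rises became 2 without LCA replicate 3 or without control replicate 1.

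Genes of lymphocyte trafficking were among those that fell. The factor KLF2 maintains expression of the sphingosine receptor S1pr1, which lets naive and memory T cells leave lymph nodes. Klf2 had 15.2, 13.7 and 16.03 CPM in LCA libraries and 44.7, 35.7 and 31.8 CPM in control libraries (-1.32 ± 0.16). Itgb7, a chain of the gut-homing integrin, had 327, 324 and 328 CPM in LCA libraries and 513, 486 and 499.9 CPM in control libraries (-0.62 ± 0.05). LCA libraries were below control in each case. S1pr1 (-0.75 ± 0.16, named after its values were seen) and the chemokine receptor Cxcr4 (-0.68 ± 0.08) fell too, while Gcnt1, a glycosyltransferase, rose, with 26.9, 26.2 and 25.6 CPM in LCA libraries and 16.8, 14.6 and 14.1 CPM in control libraries (0.79 ± 0.07). In the trafficking list, 4 of 33 tested genes rose, 14 fell and 15 did not pass (median -0.14).

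T cell receptor chains changed little, and genes induced by receptor signalling went both ways. Of 16 chain and coreceptor genes, 3 rose and none fell: Cd6 (0.22 ± 0.04), Cd96 (0.27 ± 0.06) and Cd8a (0.10 ± 0.04). The count that fell was 4 without LCA replicate 1 and in a fit of the 6 libraries alone, 3 with a replicate block and 2 with no filter on low counts. Cd8a passed without control replicate 1 and with all 6 libraries, but not when any other library was left out (adjusted p 0.0577 to 0.103). Cd3e did not pass (-0.09 ± 0.05), except without LCA replicate 1 (edgeR adjusted p = 0.00656). Of 27 genes known to be induced by the receptor, 10 rose, 8 fell and 9 did not pass (median 0.12). Irf4, whose level is known to track receptor signal strength and which supports the effector programme, had 208, 194 and 196 CPM in LCA libraries and 352, 368 and 365 CPM in control libraries (-0.86 ± 0.04, edgeR adjusted p = 1.69e-14). Cd69, an early activation antigen, had 73.4, 73.5 and 75.8 CPM in LCA libraries and 49.2, 51.6 and 49.7 CPM in control libraries (0.56 ± 0.06). The orphan nuclear receptor Nr4a3 (0.56 ± 0.07) and Cd83 (1.47 ± 0.16) rose as well. Irf4 thus stood on the opposite side of control from Cd69, Nr4a3 and Cd83. The 8 falls of the list became 5 without LCA replicate 3, 5 without control replicate 2 and 4 without control replicate 3. Among AP-1 genes, 7 of 15 rose and 3 fell (median 0.17). Jun had 11.1, 11.01 and 12.7 CPM in LCA libraries and 23.1, 26.6 and 21.9 CPM in control libraries (-1.04 ± 0.10), and Batf, the partner of IRF4, fell (-0.39 ± 0.06), while the repressor Jdp2 rose (0.62 ± 0.09). Of the MAP kinase phosphatase and Sprouty genes, which restrain Ras and ERK signalling, 1 of 21 rose and 7 fell (median -0.08), with Rasa3, a Ras GTPase-activating protein, at 74.6, 77.2 and 72.3 CPM in LCA libraries and 152, 142 and 139 CPM in control libraries (-0.95 ± 0.09) and Spred2 at -0.94 ± 0.08. The single rise was lost without LCA replicate 3, control replicate 2 or control replicate 3, and 2 rose without control replicate 1.

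Effector and memory transcription factors fell more often than they rose, with 7 of 39 higher, 16 lower and 16 not passed (median -0.10). Prdm1, which encodes the effector factor BLIMP1, had 18.4, 17.6 and 16.9 CPM in LCA libraries and 30.3, 30.6 and 30.7 CPM in control libraries (-0.79 ± 0.06). The repressor Gfi1 (-0.66 ± 0.07) and the memory-associated Lef1 (-0.50 ± 0.05) also fell, and Tox, a factor of chronically stimulated cells, rose (0.44 ± 0.06). Tbx21, which encodes T-bet, fell slightly (-0.24 ± 0.06), whereas Tcf7 (0.16 ± 0.13) and Foxo1 (-0.08 ± 0.05) did not pass. Tcf7 had 132.2 ± 3.965 CPM with LCA and 118.4 ± 2.714 CPM in control (SD, n = 3 each). Its SD was 30.98 CPM with IsoLCA and 36.44 CPM with UDCA, which enter the shared spread. In a fit of the 6 libraries alone Tcf7 passed (0.16 ± 0.04, edgeR adjusted p = 0.0049). The inhibitory receptor list, which also holds ectonucleotidases, divided evenly, with 6 of 17 higher and 6 lower (median 0.08). The 6 rises, which are not named here, became 3 without LCA replicate 1 or without control replicate 3. No tested member was above 0.425. The ectonucleotidases Nt5e (-1.25 ± 0.14) and Entpd1 (-0.85 ± 0.09), which make adenosine, fell along with Vsir (-0.54 ± 0.04) and Ctla4 (-0.45 ± 0.06). Pdcd1, which encodes PD-1, did not pass (0.08 ± 0.09, 95% interval -0.11 to 0.27). Of 26 cytokine receptor genes 7 rose and 7 fell (median -0.02), with Il2ra, the high-affinity interleukin 2 receptor chain, lower (-0.36 ± 0.08), Il2rg, the shared chain, higher (0.21 ± 0.04) and Il7r at -0.09 ± 0.05 (not passed). In the TNF superfamily 4 of 30 genes rose and 10 fell (median -0.12), with Tnfrsf26 (-0.97 ± 0.11) among the falls. Its 4 rises became 2 without LCA replicate 1, control replicate 1 or control replicate 2.

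Genes that supply and charge amino acids rose more often than they fell. The factor ATF4 drives such genes when amino acids run short or the endoplasmic reticulum is stressed, and tRNA synthetases attach amino acids to their tRNAs. Of 28 amino acid transporter genes, 13 rose, 3 fell and 12 did not pass (median 0.18), with 1 fall without LCA replicate 3 or control replicate 2. Slc7a3, a carrier of cationic amino acids, had 31.2, 35.9 and 32.4 CPM in LCA libraries and 14.4, 15.4 and 15.2 CPM in control libraries (1.14 ± 0.10). Slc6a9, the glycine transporter, had 26.2, 33.7 and 30.1 CPM in LCA libraries and 11.6, 15.1 and 14.03 CPM in control libraries (1.14 ± 0.11). Both were higher in every LCA library. The chains of the large neutral amino acid transporter, Slc3a2 (0.54 ± 0.04) and Slc7a5 (0.47 ± 0.06), rose. Of 38 tRNA synthetase genes, 22 rose, 1 fell and 15 did not pass (median 0.19), with Aars (0.40 ± 0.03), Lars (0.34 ± 0.04) and Nars (0.36 ± 0.05) among the rises. In the serine, one-carbon and transsulfuration list, 14 of 31 rose and 3 fell (median 0.10), including the mitochondrial folate enzymes Aldh1l2, with 9.71, 13.7 and 9.49 CPM in LCA libraries and 3.93, 5.24 and 4.42 CPM in control libraries (1.27 ± 0.14), and Shmt2 (0.41 ± 0.04). Gclm and Gclc, the subunits of the first enzyme of glutathione synthesis, were at 0.63 ± 0.05 and 0.47 ± 0.04. In the ATF4 and stress list 16 of 31 rose and 1 fell (median 0.14), with Atf5, a factor of the same response, at 31.6, 40.1 and 36.03 CPM in LCA libraries and 14.6, 17.3 and 16.3 CPM in control libraries (1.16 ± 0.08, edgeR adjusted p = 4.29e-11). The 1 fall of that list became 4 without LCA replicate 1 and 5 without control replicate 1. Asns, the asparagine synthetase, had 229.6, 250.4 and 229.9 CPM in LCA libraries and 133, 154 and 149.9 CPM in control libraries (0.70 ± 0.06). Atf4 itself, looked up after these values were seen, had 496, 490.1 and 491 CPM in LCA libraries and 421, 474 and 496 CPM in control libraries, with overlapping groups (0.09 ± 0.05, not passed). The letters TGATGNAA, to which C/EBP and ATF dimers are known to bind, stood on either strand in 1.91% of all 9896 promoters and in 7 of 27 of the ATF4 list (25.9%). They stood in 3 of 27 tRNA synthetase genes (11.1%), 2 of 26 of the serine list (7.69%) and 2 of 23 amino acid transporters (8.7%). Counting only members that rose, the shares were 4 of 13 in the ATF4 list (30.8%) and 3 of 16 tRNA synthetase genes (18.8%). For the serine list and the transporters they were 1 of 11 (9.09%) and 0 of 8. Of members that fell, the 1 in the ATF4 list also had a match, against 0 of 3 in the serine list and 0 of 3 transporters. The promoters of Atf5, Slc6a9 and Shmt2 had no match. Those of Asns (chr6:7693210-7693309 (minus strand), 23 bases upstream) and Aars (chr8:111033685-111033784 (plus strand), 112 bases upstream) are shown because both genes rose, with matches in capitals.
Asns: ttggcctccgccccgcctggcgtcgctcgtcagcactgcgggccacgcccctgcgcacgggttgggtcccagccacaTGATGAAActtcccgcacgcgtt
Aars: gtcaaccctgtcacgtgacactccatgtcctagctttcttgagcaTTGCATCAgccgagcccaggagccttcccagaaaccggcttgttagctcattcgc

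Ribosome assembly factors rose more often than they fell, while the count for ribosomal proteins depended on how transcript length was treated. Of 65 ribosome biogenesis genes, 43 rose, 1 fell and 21 did not pass (median 0.20); the fall was kept without control replicate 1 and lost without each of the other 5 libraries. Nop56, a core protein of box C/D snoRNPs, which guide methylation of ribosomal RNA, had 459, 471 and 483 CPM in LCA libraries and 345, 339 and 357 CPM in control libraries (0.44 ± 0.05, edgeR adjusted p = 2.86e-07), and each LCA library was above control. Wdr74 (0.35 ± 0.04), Noc3l (0.38 ± 0.05) and Ubtf, a factor of RNA polymerase I (0.30 ± 0.04), rose as well. Myc, the best known activator of these genes, had 441, 430.3 and 441 CPM in LCA libraries and 458, 501 and 517 CPM in control libraries and fell (-0.17 ± 0.07), a call that was kept without control replicate 1 but lost without each of the other 5 libraries (adjusted p 0.0727 to 0.164) and with upper-quartile factors (0.0502). Of 81 cytosolic ribosomal protein genes none rose, 35 fell and 46 did not pass (median -0.09), among them Rps28 (-0.30 ± 0.04) and Rpl37a (-0.30 ± 0.04). This count moved with transcript length, which is short in these genes: among transcripts under 1000 bases 6.48% of tested genes rose and 24.5% fell, against 22.4% and 15.3% at 4000 bases and over. With offsets for length and GC content 14 ribosomal protein genes rose and 16 fell (median 0.00), while 44 ribosome biogenesis genes rose and 1 fell. Without LCA replicate 2 and without control replicate 3, 22 and 23 ribosomal protein genes fell, and 1 rose without control replicate 3.

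Subunits of the respiratory chain fell more often than they rose. Of 31 genes of complexes III and IV, 20 fell and 3 rose (median -0.16), with Uqcrh (-0.60 ± 0.05) and Cox7b (-0.44 ± 0.04) among the falls. With the length and GC offsets 14 fell and 4 rose. Of 37 complex I genes 16 fell and none rose (median -0.11), and with the offsets 8 fell and 3 rose. Of 18 ATP synthase genes 14 fell and 1 rose (median -0.16). With the offsets 11 fell and 2 rose, 9 fell without LCA replicate 2 and 8 without control replicate 3, and the rise was lost without control replicate 2 or 3. Mitochondrial ribosomal protein genes were balanced, 14 of 78 higher and 13 lower (median 0.03), but with the offsets 32 rose and 11 fell, and the 14 rises became 9 without LCA replicate 1 and 8 without control replicate 1. Among tricarboxylic acid cycle genes, 9 of 28 fell and 2 rose (median -0.04; 1 rose without LCA replicate 2, LCA replicate 3, control replicate 1 or control replicate 3, and 4 with upper-quartile factors or in a fit of the 6 libraries), with the malic enzyme Me2 (-0.51 ± 0.05) and pyruvate carboxylase Pcx (-0.63 ± 0.08) lower. Proteasome genes had 9 of 42 lower and 4 higher (median -0.04), and 9 lower and 12 higher with the offsets (median 0.02). The offsets left the main counts of the interferon and NF-kB lists nearly in place, with 36 rises and 11 falls of interferon-stimulated genes, 4 and 13 of interferon gamma genes, and 15 and 1 of NF-kB genes.

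Nuclear noncoding RNAs and host transcripts of small nucleolar RNAs rose, in 19 of 29 tested members with 1 fall (median 0.43). Gas5, a snoRNA host, had 391, 497 and 497 CPM in LCA libraries and 355, 324 and 310.2 CPM in control libraries (0.49 ± 0.10). Kcnq1ot1, an antisense RNA of an imprinted domain, had 19.9, 32.00 and 18.4 CPM in LCA libraries and 12.1, 8.92 and 5.94 CPM in control libraries (1.39 ± 0.32). Snhg12 (0.61 ± 0.08) and Snhg5 (0.43 ± 0.06) rose too. Malat1, chosen after its values were seen, varied within both groups, with 435, 741 and 596 CPM in LCA libraries and 472, 283 and 152 CPM in control libraries, so that its groups overlapped although it passed the test (0.97 ± 0.35). The 19 rises became 10 without LCA replicate 3, where 2 fell, and 9 without control replicate 3. Share of counts in exons was slightly lower with LCA (80.7% ± 1.52) than in control (82.6% ± 1.37, SD, n = 3 each), and its part in these values was not tested. The counting is not stated to use strand, so Kcnq1ot1 and the genes it overlaps cannot be told apart in these values.

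Genes known to bind or export bile acids were also examined. RXRα is the shared partner of the bile acid receptor FXR, the vitamin D receptor and others. Rxra had 35.1, 32.7 and 34.2 CPM in LCA libraries and 22.1, 19.4 and 22.4 CPM in control libraries (0.67 ± 0.07), so all LCA libraries were higher. Vdr, the vitamin D receptor, rose by 0.45 ± 0.15 at a low level, 3.62 ± 0.572 CPM with LCA and 2.66 ± 0.469 CPM in control (SD, n = 3 each), and was named after its values were seen. Of 22 receptor and partner genes 3 rose and 3 fell (median -0.03; 5 fell with the length and GC offsets), the thyroid hormone receptor Thra among the falls (-0.70 ± 0.10). Of 15 efflux pump and bile acid transporter genes, 8 rose and 1 fell (median 0.23): the drug pumps Abcb1b (0.34 ± 0.03) and Abcc1 (0.28 ± 0.04) rose, with Abcb1b and its paralog Abcb1a open to shared reads. The 1 fall was lost without LCA replicate 1 or without control replicate 1. Abcc10, another pump of that family, was among the 20 largest rises (0.92 ± 0.11). In the nuclear lamina list 6 of 22 genes rose and 3 fell (median 0.01), and 5 fell with the offsets. Beside Lmna, which rose, the lamin B receptor Lbr fell (-0.41 ± 0.03) and Lmnb1, the B-type lamin, did not pass (-0.07 ± 0.03). 

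More proliferation genes fell than rose, by small amounts. Of 52 DNA replication genes 25 fell and 2 rose (median -0.11), and of 67 mitosis genes 33 fell and 1 rose (median -0.09). Pcna, the sliding clamp of DNA polymerase, had 507, 466 and 499 CPM in LCA libraries and 568, 582 and 606 CPM in control libraries (-0.25 ± 0.04), and the centromere histone Cenpa was at -0.27 ± 0.04. The few rises of both lists became 1 and 0 without LCA replicate 2, LCA replicate 3, control replicate 2 or control replicate 3. Mki67, looked up as the usual proliferation marker after values were seen, did not pass (0.04 ± 0.05, 95% interval -0.07 to 0.15). Cell cycle inhibitors and p53 targets also fell more often than they rose, 20 and 6 of 42 (median -0.19). Cdkn1a, which encodes p21, had 103.4, 89.4 and 100.8 CPM in LCA libraries and 131, 134 and 147 CPM in control libraries (-0.49 ± 0.07), and Ccng2 (-1.12 ± 0.13) and Cdkn2d (-0.60 ± 0.07) fell, while Trp53 did not pass (0.09 ± 0.04), except without control replicate 3 (edgeR adjusted p = 0.0254), with upper-quartile factors (0.0389) and with the length and GC offsets (0.0166). In the BCL2 family 9 of 19 fell and 1 rose (median -0.15). Bnip3, a mitochondrial receptor for autophagy, had 131, 109 and 119.7 CPM in LCA libraries and 237, 273 and 257 CPM in control libraries (-1.09 ± 0.09), Bax fell (-0.39 ± 0.06), and the survival genes Bcl2 (-0.18 ± 0.05) and Mcl1 (-0.15 ± 0.04) fell slightly. The 1 rise of that list was lost without LCA replicate 1, LCA replicate 3, control replicate 1 or control replicate 2.

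More cytoskeleton and membrane traffic genes fell than rose. Of 58 actin and adhesion genes 31 fell and 2 rose (median -0.13). Tmsb4x, the actin-sequestering thymosin, had 1584, 1475 and 1579 CPM in LCA libraries and 2216, 2229 and 2373 CPM in control libraries (-0.56 ± 0.05), and the annexin Anxa2 (-0.60 ± 0.05) fell with its partner S100a10 (-0.66 ± 0.04). In the tubulin list, which holds Tubb6, 10 of 32 fell and 5 rose (median -0.01), and the rises became 3 without LCA replicate 3 or control replicate 3. Of 61 secretory pathway genes 27 fell and 1 rose (median -0.11), including the translocon subunit Sec61g (-0.55 ± 0.06), and the 1 rise was lost without LCA replicate 1, LCA replicate 2, control replicate 1 or control replicate 2. Of 41 autophagy genes 19 fell and 2 rose (median -0.10), with Map1lc3b, the autophagosome protein LC3B, at 36.2, 36.1 and 37.6 CPM in LCA libraries and 49.7, 53.2 and 52.4 CPM in control libraries (-0.50 ± 0.05). These 2 rises became 1 without LCA replicate 3, control replicate 1 or control replicate 3. Of 49 lysosome genes 19 fell and 9 rose (median -0.09), with the proton pump subunit Atp6v0a1 higher (0.98 ± 0.09). The 9 rises became 5 without LCA replicate 2 and 4 without control replicate 2.

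Changes in metabolism outside these groups were led by glycolysis and sterol genes, lists chosen with that result known. Of 47 glycolysis and hypoxia-responsive genes 44 fell and 1 rose (median -0.60), and of 25 cholesterol synthesis genes 24 fell and none rose (median -0.59). P4ha2 had 4.92, 4.32 and 5.08 CPM in LCA libraries and 16.3, 23.4 and 17.04 CPM in control libraries, and Slc16a3, the lactate exporter, fell (-1.08 ± 0.06). The gene that rose was Vegfa (0.22 ± 0.08), and it did not pass without LCA replicate 2, LCA replicate 3, control replicate 1 or control replicate 3. The hypoxia response letters ACGTG stood on either strand in 21 of 37 promoters of the members that fell (56.8%) and in 22.2% of all 9896. Among 34 antioxidant genes, 8 rose and 15 fell (median -0.13), with the peroxiredoxin Prdx5 lower (-0.49 ± 0.05). Of 22 selenoprotein genes 10 fell and 1 rose (median -0.08): the lipid peroxidase Gpx4 fell (-0.39 ± 0.06) and Txnrd1, the thioredoxin reductase, rose (0.32 ± 0.04), and 2 rose without control replicate 1. Of 35 metal genes 8 rose and 11 fell (median -0.04). The metallothionein Mt2 rose (0.68 ± 0.07), uncertain because it resembles Mt1, and the transferrin receptor Tfrc fell, with 1166, 1040.0 and 1077 CPM in LCA libraries and 1520.0, 1565 and 1619 CPM in control libraries (-0.52 ± 0.06). The 8 rises became 3 without LCA replicate 2, 5 without control replicate 1 and 4 without control replicate 3. Of 32 purine and pyrimidine synthesis genes 14 fell and 3 rose (median -0.09), among them the salvage kinase Dck (-0.38 ± 0.04).

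**Figure D3:**
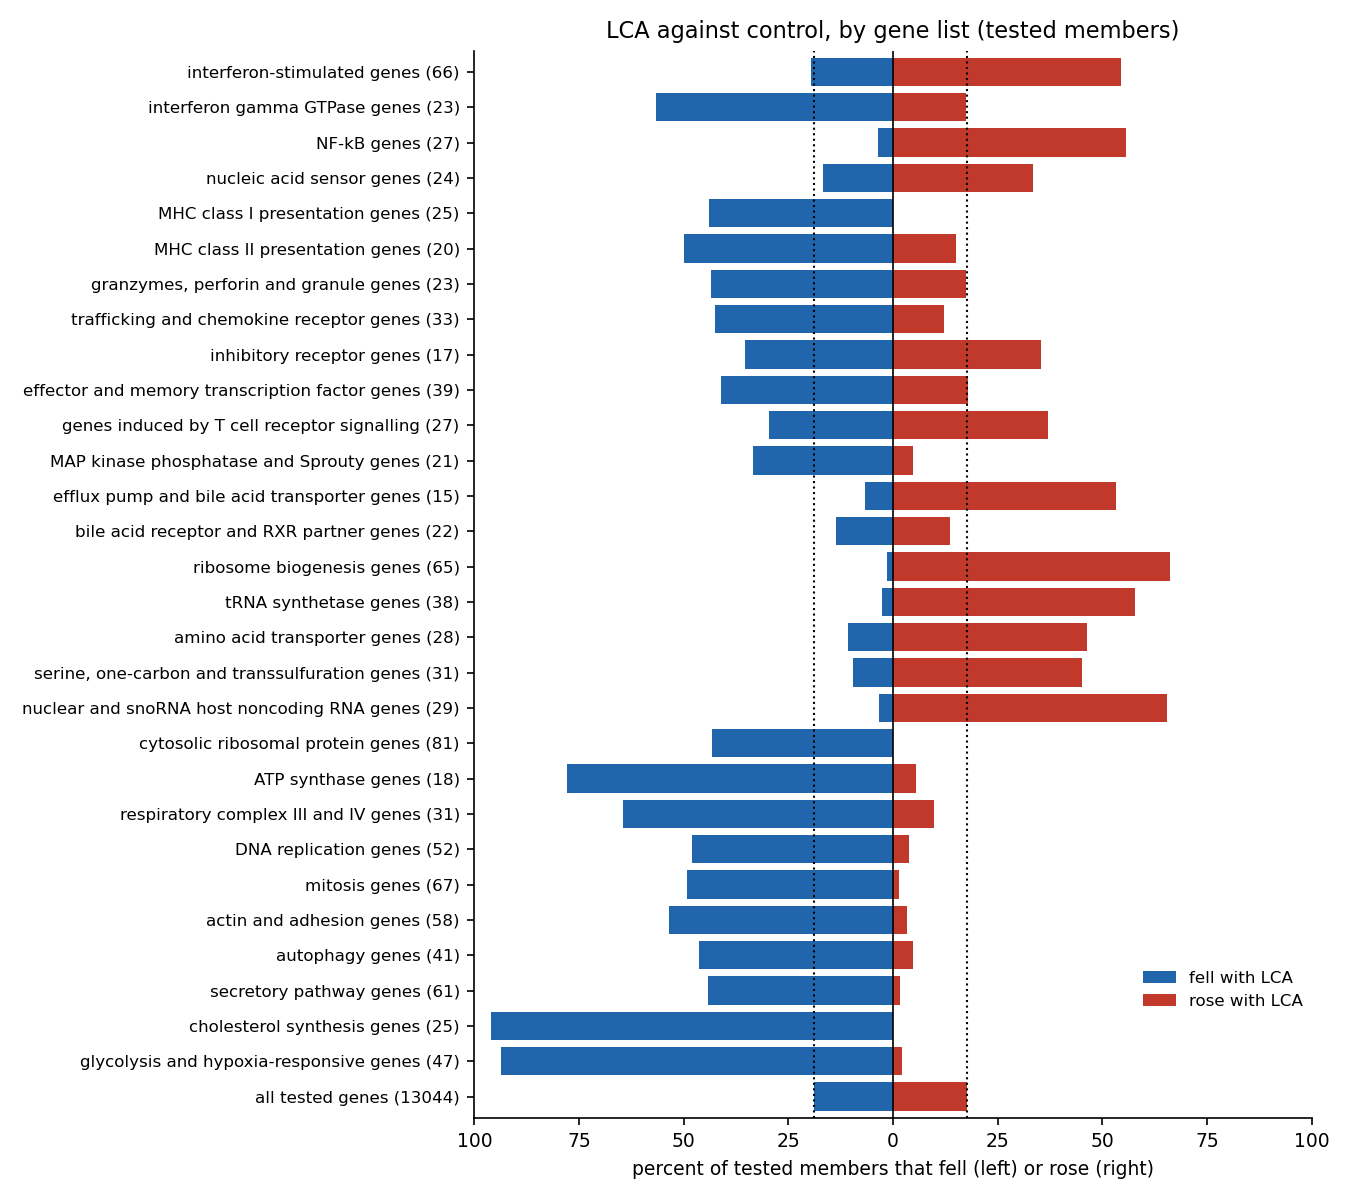
Bars give, for 29 lists and for all tested genes, the percent of tested members that fell with LCA (left) or rose (right), with the number tested in parentheses. Dotted lines mark all tested genes, 17.7% higher and 18.8% lower; interferon-stimulated, NF-kB and ribosome biogenesis genes extend to the right, and interferon gamma, glycolysis and cholesterol genes to the left.

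LCA was then set against 3 related acids given at the same dose, and p-values were adjusted over all tested genes of each pair. IsoAlloLCA, also given at 50 µM, was not compared here. IsoLCA is the epimer of LCA at its ring hydroxyl, DehydroLCA carries a ketone in that place, and UDCA has a further ring hydroxyl. LCA differed from IsoLCA in 3957 genes (30.3%), from DehydroLCA in 2317 (17.8%) and from UDCA in 3504 (26.9%). Without LCA replicate 2 the IsoLCA count was 2521 and the DehydroLCA count 1189, and the DehydroLCA count was 1448 without DehydroLCA replicate 1 and 1377 without DehydroLCA replicate 2. Each acid was also compared with the same 3 control libraries, so those comparisons are not independent: 4765 genes differed from control with LCA, 1284 (9.84%) with IsoLCA, 760 (5.83%) with DehydroLCA and 2599 (19.9%) with UDCA.

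Interferon-stimulated genes were among those that set LCA apart from these 3 acids. Of 66 tested members, 46 differed between LCA and IsoLCA, 39 between LCA and DehydroLCA and 45 between LCA and UDCA. Their median log2 fold change over control was 0.28 with LCA, -0.16 with IsoLCA, 0.00 with DehydroLCA and -0.17 with UDCA. Isg15 averaged 15.8 ± 0.628 CPM with LCA, 5.01 ± 0.695 with IsoLCA, 8.56 ± 0.871 with DehydroLCA and 4.25 ± 0.974 with UDCA (SD, n = 3 each). LCA exceeded IsoLCA in Isg15 by 1.66 ± 0.13, DehydroLCA by 0.88 ± 0.12 and UDCA by 1.88 ± 0.14 on the log2 scale, and each difference passed. NF-kB genes differed in 18, 11 and 15 of 27 members between LCA and IsoLCA, DehydroLCA and UDCA in that order, with medians over control of 0.18 with LCA, -0.08 with IsoLCA, 0.03 with DehydroLCA and -0.01 with UDCA. Relb was higher with LCA by 1.09 ± 0.08 than with IsoLCA, by 0.85 ± 0.08 than with DehydroLCA and by 1.04 ± 0.09 than with UDCA.

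The interferon gamma list had a median below 0 under all 4 acids compared. The median over control was -0.22 with LCA, -0.35 with IsoLCA, -0.28 with DehydroLCA and -0.15 with UDCA, and 10, 6 and 12 of 23 members differed between LCA and IsoLCA, DehydroLCA and UDCA in that order. LCA minus IsoLCA in Gbp2 was -0.11 ± 0.06 (edgeR adjusted p = 0.174, 95% interval -0.24 to 0.02) and LCA minus DehydroLCA was -0.05 ± 0.06 (edgeR adjusted p = 0.661, -0.17 to 0.08), neither of which passed. Gbp2 was lower with LCA than with UDCA (-0.37 ± 0.06).

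**Figure D4:**
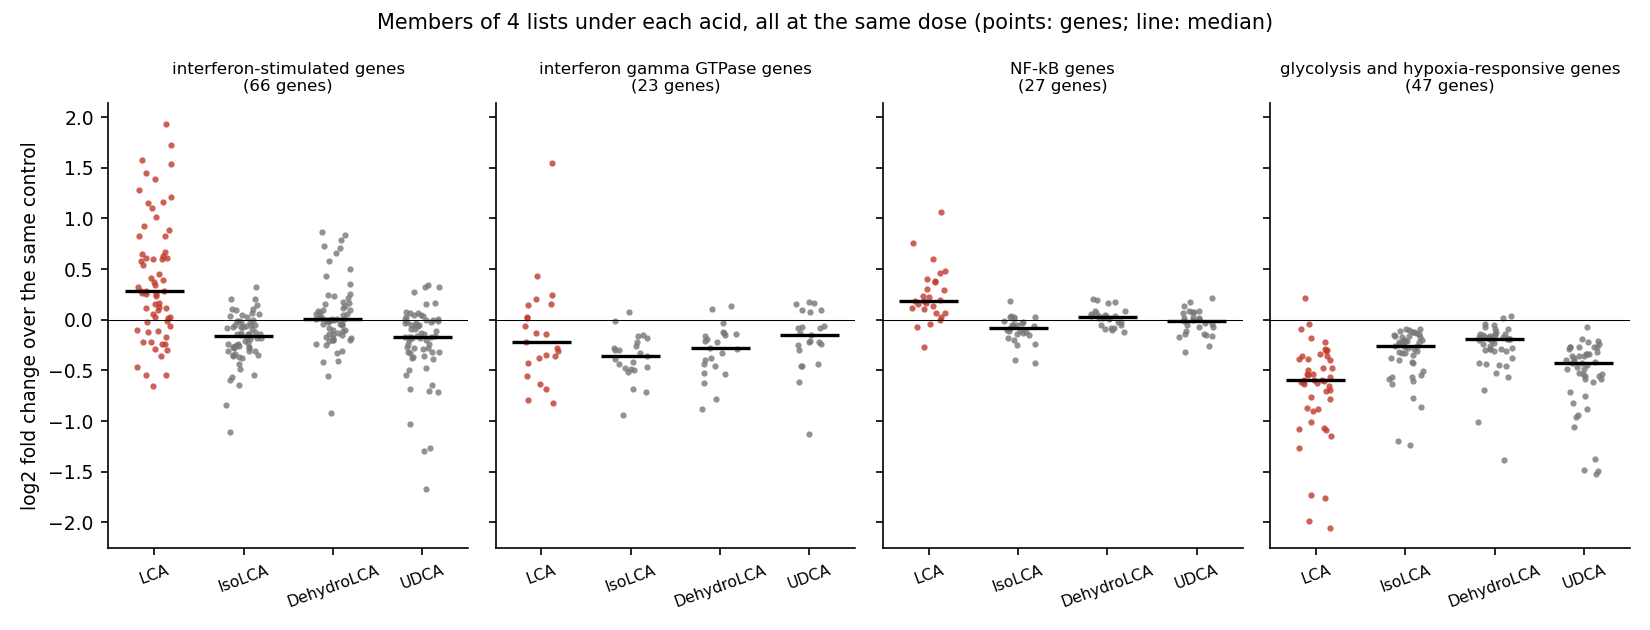
Points are the tested members of 4 lists, placed by the log2 fold change of each acid (LCA first, then IsoLCA, DehydroLCA and UDCA, all at 50 µM) over the same control libraries, and lines are medians. Interferon-stimulated genes have a median of 0.28 with LCA and -0.16, 0.00 and -0.17 with the other acids, while the median of the interferon gamma list is below 0 under each.

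The genes with the largest differences between LCA and each related acid were partly shared. They were ranked among genes that differed, reached 10 CPM with one of the acids compared, had libraries without overlap and an established symbol; the scarcer Cxcl10 differed more, by 1.93 ± 0.16 from IsoLCA, 1.41 ± 0.15 from DehydroLCA and 2.67 ± 0.18 from UDCA. Against IsoLCA the largest were Isg15, Rtp4 (1.62 ± 0.15), Cth (1.47 ± 0.16) and Cd74 (1.46 ± 0.10) on the higher side and Aldoc (-1.42 ± 0.12), the glycogen phosphorylase Pygl (-1.27 ± 0.20), Mt1 (-1.18 ± 0.06) and Mt2 (-1.15 ± 0.07) on the lower side. Mt1 averaged 102.9 ± 4.61 CPM with LCA, 233 ± 9.86 CPM with IsoLCA and 92.7 ± 3.13 CPM in control (SD, n = 3 each). Against DehydroLCA they were Cd74 (1.31 ± 0.10), Kcnq1ot1 (1.25 ± 0.32), Cth (1.25 ± 0.16) and Rtp4 (0.99 ± 0.15), with P4ha2 (-1.43 ± 0.19), Aldoc (-1.36 ± 0.12), the TGF-beta family receptor Acvrl1 (-1.15 ± 0.11) and Pygl (-1.15 ± 0.20) lower. Against UDCA they were Cth (2.52 ± 0.18), Aldh1l2 (1.95 ± 0.15), Ifit1 (1.95 ± 0.17) and Isg15, with Abcg1 (-2.19 ± 0.09), Rap1gap2 (-1.55 ± 0.15), Klf2 (-1.36 ± 0.16) and Acp5 (-1.29 ± 0.08) lower. Cth averaged 14.9 ± 2.28 CPM with LCA, 5.29 ± 1.68 CPM with IsoLCA, 6.26 ± 0.112 CPM with DehydroLCA, 2.58 ± 0.0743 CPM with UDCA and 4.21 ± 0.817 CPM in control (SD, n = 3 each).

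Other genes that moved with LCA were at like levels under an epimer or analog, as far as their intervals go; these were chosen after their values were seen. Acp5 differed between LCA and IsoLCA by 0.05 ± 0.09 (edgeR adjusted p = 0.670, 95% interval -0.12 to 0.23), but was lower with LCA than with DehydroLCA (-0.88 ± 0.08) and UDCA (-1.29 ± 0.08). Prdm1 differed between LCA and IsoLCA by -0.02 ± 0.06 (edgeR adjusted p = 0.866, -0.14 to 0.11). Pygl differed between LCA and UDCA by -0.11 ± 0.23 (edgeR adjusted p = 0.768, -0.58 to 0.36), a wide interval for a gene at 4.55 CPM with LCA. Ifng, which did not pass against control, was higher with LCA than with IsoLCA (0.83 ± 0.18) and DehydroLCA (0.91 ± 0.19) and lower than with UDCA (-0.70 ± 0.16). Lmna was higher with LCA than with UDCA (1.75 ± 0.07) and DehydroLCA (0.34 ± 0.06) and lower than with IsoLCA (-0.34 ± 0.06).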

How the data were processed

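RNA-seq libraries of activated mouse CD8+ T cells were grouped by the treatment in the sample titles, 3 libraries in each of 8 groups. The authors deposited 1 table of 24537 genes made with HOMER on mm10, per the file headers. STAR, DESeq2 and GRCm38 are further names in the submitters' processing notes. The authors' values proved to be expected counts with a step of 0.5, of which 29.43% were not whole. They were rounded to whole numbers, a final 0.5 upward, although the design had assumed whole counts. No strand option is stated. Reads of near-identical copies and of overlapping genes, and of 393 genes with more than 1 copy, may have been divided or mixed. Genes of the mitochondrial chromosome number 0 in it.

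The 24 libraries (25998051 to 41024340.5 counts in genes) were fitted together with edgeR 4.0.16 in R 4.3.3 (filterByExpr, TMM, glmQLFit, glmQLFTest, group only). TMM factors ran from 0.971 to 1.05 and the common coefficient of biological variation was 4.41% (residual degrees of freedom 16, prior 8.84). Depth limits precision mainly for scarce genes. A gene counted as changed where its p, adjusted by Benjamini-Hochberg over every tested gene, was under 0.05. The SE is the absolute log2 fold change divided by the square root of the F statistic, and thus rests on a spread estimated over all 24 libraries. Libraries of the same group were further apart than sampling noise (chi-square per degree of freedom 3.30 to 6.15 between LCA pairs and 5.00 to 14.9 between control pairs), so none was counted as a duplicate. The fit was run on simulated counts with few changed genes, all in the LCA group, and the same spread for every gene. That setting differs from these data, so it bears on the code and not on the calls.

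The genes were grouped into 71 lists, described by counts and medians beside all tested genes, with no set test. The comparison, the lists and the motifs were chosen with earlier results of these data known. Named genes are the 20 largest rises and falls among changed genes with 10 CPM or more in LCA or control, non-overlapping libraries and an established symbol, the 4 changed members of each list with the smallest adjusted p, a fixed set of T cell genes, by the same limits the 4 largest differences in each direction for each pair of acids, and the genes said in the text to be chosen after their values were seen. A few others were added to complete a pair or a complex. A few of the genes so chosen are not reported here. Promoters came from the RefSeq table of GRCm38.p6, whose start sites lay within 100 bases of the deposited ones for 9334 genes. Alternatives were RLE and upper-quartile factors, DESeq2 1.42.0, other filters on low counts, only the libraries compared, a replicate block, a final 0.5 rounded down, each library left out, and, chosen after seeing the data, offsets for transcript length and GC content, which 12974 of the tested genes (99.5%) had.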

Additional observations from a re-analysis of the deposited data

How the results depend on the processing

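The number of genes that differed between LCA and control was 4765, and it was 4706 with RLE factors, 4889 with upper-quartile factors, 4419 with DESeq2, 4499 with no filter, 4295 with genes under 5 CPM left out, 4695 in a fit of the 6 libraries alone and 4932 with length and GC offsets. It ran from 3648 to 4504 when 1 library was left out. These settings shared 75.1% to 98.6% of the 4765 genes. The count beyond 2-fold was 268, was 45 with genes under 5 CPM left out, which leaves fewer genes to test, and ran from 239 to 312 when 1 library was left out. Between acids, leaving out 1 library gave 2521 to 3897 for LCA against IsoLCA, 1189 to 2228 for LCA against DehydroLCA and 2487 to 3338 for LCA against UDCA, with fewer samples in each fit. Same-numbered LCA and control libraries correlated at -0.24, -0.0042 and -0.04 in their deviations from group means. With 3 libraries a group and no statement of what the numbers mean, these values cannot settle whether the samples are paired. With a replicate block 4974 genes differed from control (273 beyond 2-fold), and 4218, 2533 and 3754 differed between LCA and IsoLCA, DehydroLCA and UDCA. LCA against DehydroLCA gave 3420 in a fit of those 6 libraries alone, the cause of which was not tested. Upper-quartile factors gave 1927 genes higher and 1648 lower for LCA against UDCA, where the TMM fit gave 1570 and 1934.

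The settings were also compared for 298 genes, chosen mostly as large or strongly passing changes. Of these, 288 passed in the main fit. In each setting 290 to 298 kept their direction and their side of the threshold (279 of 279 with genes under 5 CPM left out). That choice favours genes that hold, so these counts do not describe all changed genes. Without LCA replicate 2, 75.1% of the 4765 changed genes were shared. The 298 are not the same set as the genes named in the text: Vegfa is not among them, and Cct6a is. Reversals among the 298 were seen in H2-K1 and Ifng, neither of which passed in any setting. H2-K1 was 0.0051 with upper-quartile factors, 7e-04 without LCA replicate 1, 0.0067 without control replicate 2 and 0.0165 with the offsets, and ran from -0.0182 to 0.0067 when 1 library was left out. Ifng was -0.0073 without LCA replicate 1, -0.0573 without LCA replicate 3 and -0.073 without control replicate 1, with a highest value of 0.2407 without control replicate 2. With the offsets the median of the nuclear lamina list was -0.0091, where it had been 0.007. Tcf7 passed in the fit of the 6 libraries alone (edgeR adjusted p = 0.0049).

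Changes in scarce genes, such as Ccl3, Cd40 or Vdr, rest on few counts, and gene lists of short transcripts depend on how length is treated. With 3 libraries a group, separate cultures are not stated. The labels' times of exposure differ, and no vehicle is given for control.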

Other observations

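A cluster of GTPases on chromosome 6, the Gimap genes, was chosen after its values were seen. These GTPases of immune-associated proteins are known for their part in lymphocyte survival. All 8 tested members fell, and their median log2 fold change was -0.75. Gimap3 had 165, 165 and 173 CPM in LCA libraries and 371, 363 and 361 CPM in control libraries (-1.12 ± 0.06). Gimap7 had 72.6, 67.5 and 66.5 CPM in LCA libraries and 127, 139 and 136 CPM in control libraries (-0.96 ± 0.05), and Gimap4 had 316, 299 and 304 CPM in LCA libraries and 562, 548 and 574 CPM in control libraries (-0.87 ± 0.04). In these 3 genes every LCA library was lower than every control library. The smallest fall was in Gimap1 (-0.32 ± 0.04). The genes lie side by side, from Gimap8 at chr6:48647234-48660875 (plus strand) to Gimap3 at chr6:48764464-48770851 (minus strand) on mm10, and the counting is not stated to use strand. Gimap3 differed between LCA and IsoLCA by 0.03 ± 0.06 (edgeR adjusted p = 0.754, 95% interval -0.09 to 0.15) and was lower with LCA than with DehydroLCA (-0.36 ± 0.06) and UDCA (-0.62 ± 0.06).

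Further lists are set beside the background shares of 17.7% higher and 18.8% lower, which are not matched for level. Of 34 proximal T cell receptor signalling genes 5 rose and 10 fell, among them the diacylglycerol kinase Dgka (-0.48 ± 0.07). Of 39 calcium and ion channel genes 4 rose and 13 fell, and the rises were 2 without control replicate 3. In the PI3K and mTOR list 3 of 34 rose and 12 fell, and in the JAK, STAT, SOCS and Pim list 3 of 29 rose (5 with upper-quartile factors or in a fit of the 6 libraries) and 7 fell, with Stat4 lower (-0.33 ± 0.06). G protein regulators stood at 9 higher and 9 lower of 33, with Arrb1, a beta-arrestin, lower (-0.86 ± 0.11). Chromatin genes rose in 13 of 41 (histone methylation, with 6 falls) and 17 of 55 (acetylation and remodelling, with 9 falls), and 8 and 11 rose without control replicate 3. Among the genes of these 2 lists that fell were the remodeller Chd7, with 209, 210.2 and 206 CPM in LCA libraries and 297, 305 and 293 CPM in control libraries (-0.52 ± 0.06), and the DNA demethylase Tet1 (-0.98 ± 0.14). Splicing factor genes rose in 16 of 69 and fell in 14. The rises were 7 without LCA replicate 2, without LCA replicate 3 or without control replicate 2, and 9 without control replicate 3, which also left 8 falls. DNA repair genes rose in 11 of 54 and fell in 9, with 5 to 8 rises and 8 to 11 falls when 1 library was left out. Of 19 circadian clock genes 5 rose and 3 fell, with Per2 at 10.7, 11.5 and 11.3 CPM in LCA libraries and 7.31, 5.73 and 6.96 CPM in control libraries (0.74 ± 0.12), and the rises were 3 without control replicate 1. Of 21 NK-type receptor genes 6 rose and 1 fell, but 1 rose with genes under 5 CPM left out, most being scarce.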
